A study of Mus musculus with 12 samples.

Results

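PDGFRα+ cells sorted from skeletal muscle were compared with PDGFRα+ cells sorted from bone of mice, across all 12 libraries of the series, 6 per tissue and whatever the genotype. A library was placed by the tissue of the deposited count table that holds it, and genes were joined by their Ensembl identifier. PDGFRα is a receptor tyrosine kinase for platelet-derived growth factor and is used as a surface marker to sort mesenchymal stromal cells. Both sorts took PDGFRα+ cells that lacked CD45 and CD31. A further exclusion of cells carrying Vcam1 was applied in muscle only. CD45 (Ptprc) marks leukocytes and CD31 (Pecam1) marks endothelial cells.

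Per the labels, the muscle controls were 2 samples with the inducible Cre PDGFRα-CreER alone and 1 with PDGFRα-CreER;Esr1flox/+. The bone controls were 1 sample with Esr1flox/flox and no Cre and 2 with PDGFRα-CreER alone. The 3 muscle and 3 bone knockout samples were PDGFRα-CreER;Esr1flox/flox. The Cre is driven by Pdgfra, the gene of the sorted receptor, and the floxed gene encodes estrogen receptor alpha. The series title names female mice. No age or Cre-inducing treatment is given in the labels. The labels do not say that replicates came from separate animals, so a p-value here measures only the spread between these samples, which may be partly technical. The column names of the count tables match no sample label, so the genotype of a single library is not known and adds to the spread within each tissue. Tissue, gate and deposited table coincide in every library and cannot be told apart. Libraries are lettered A to F in muscle and G to L in bone, and the letters carry no replicate number.

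PDGFRα+ cells of skeletal muscle are known as fibro-adipogenic progenitors, interstitial cells that secrete matrix and support regeneration and that can become fibroblasts or adipocytes. PDGFRα+ cells of bone and marrow include skeletal stem and progenitor cells, cells of the osteoblast and cartilage lineages and reticular cells that secrete CXCL12, the chemokine that holds blood stem cells in the marrow. Marrow is also the site where red cells and neutrophils are made. Erythroid precursors lose CD45 as they mature.

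RNA was read at the 3' end of transcripts with the QuantSeq kit. Total counts were 2113534 to 3079081 in the muscle libraries and 2264009 to 3303659 in the bone libraries. Depth was therefore alike, but the number of genes with a count was not. It was 7635 to 9801 in muscle and 3032 to 6956 in bone. Bone libraries G, H and I had 3032, 3680 and 3343 genes. Between libraries of 1 tissue, Pearson's r of log2(CPM + 1) over the genes tested, a correlation across genes, ran from 0.596 to 0.766 in muscle and from 0.409 to 0.556 in bone. The median standard deviation of a gene over 6 libraries on that scale was 0.984 in muscle and 2.39 in bone. Library C stood apart in muscle by its blood transcripts. In bone, library L stood apart by its neutrophil transcripts, library I by its cartilage transcripts and library G by its collagen transcripts, as detailed below. The targeted gene Esr1 was counted in all 6 muscle libraries, with 1 count in library C and 32 to 172 in the others. In bone it had 606 counts in library G, 61 in library K and 0 in the other 4. The labels do not name the floxed exon and the assay reads the 3' end, so these counts do not check the deletion.

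Transcripts of red cells made up most of the bone libraries. Globin genes held 56.2% to 73.9% of the counts of a bone library, with a median of 63.0%. In muscle they held 0.136% to 0.857%, with a median of 0.207%, and the highest value was that of library C. The groups did not overlap. The mean log2 share was 8.06 higher in bone (two-sided exact permutation test over libraries, p = 0.002165, the smallest that the arrangements of 12 libraries allow, and 0.00354 after Benjamini-Hochberg adjustment over 18 marker lists). The erythroid genes without globin held 0.681% to 0.963% of bone counts and 0.00188% to 0.0223% of muscle counts.

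All 4 adult globin genes were called higher in bone by the count test used throughout, edgeR's quasi-likelihood test with Benjamini-Hochberg adjustment at 0.05. Among all 5719 genes tested, 3.43% were called higher in bone and 6.80% higher in muscle. Levels below are CPM, the count of a gene divided by the library size as scaled by TMM. Fold changes are log2 of bone over muscle, followed by an approximate standard error (SE). That SE is the absolute log2 fold change divided by the square root of the test's F statistic. It was not estimated separately and is rough for genes near 0 in either tissue. Hba-a1, an alpha globin gene on chromosome 11 (32283511 to 32284465, build GRCm38), had a log2 fold change of 9.27 ± 0.659 (adjusted p = 9.07e-06). Hbb-bs, a beta globin gene on chromosome 7 (103826534 to 103828096), had one of 8.72 ± 0.690 (adjusted p = 2.08e-05). Hba-a2 and Hbb-bt had log2 fold changes of 9.15 and 9.89, but the alpha copies, and likewise the beta copies, are so alike that reads can be split between them. With limma-voom these 4 genes were not called. Alas2, the first enzyme of haem synthesis in red cells (chromosome X, 150547375 to 150570638), had 0 to 39.6 CPM in muscle with a median of 8.42, against 2396 to 5754 in bone with a median of 3575. Its groups did not overlap, and its log2 fold change was 8.21 ± 1.47 (adjusted p = 0.00519).

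Of the 24 erythroid genes matched, 16 passed the filter on low counts, and all 16 of those were higher in bone. The median log2 fold change of the 16 was 9.21, or 8.94 with genes absent from muscle set at their lower bound, against -0.53 over all genes tested. A gene absent from muscle passes that filter through its bone libraries alone, so the count describes the members that passed and tests nothing about the list. Without a filter all 24 were called higher in bone.

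Erythroid genes share a known regulator, GATA1. A single form of its binding motif, AGATAA, was searched on both strands, and other forms were not. RefSeq promoter windows (GRCm38.p6, 250 bases before to 50 after a start site) were found for 17 of the 24 members. The motif was present in 7 of their 19 windows (36.8%), against 3672 of 32851 windows of the same length over all genes (11.2%). This is a match of letters and not a measured binding site. Among called members, the motif was found at Alas2, Hbb-bs, Hemgn and Rhd. Windows of the called members Hba-a1, Hba-a2, Hbb-bt, Bpgm, Sptb and Tfrc held none. The remaining matches lay at Epb42, Epor and Tal1, which were not tested. The windows of Alas2, Rhd and Hbb-bs are printed 5' to 3' on the strand of the gene as examples with a match. The motif, as read on either strand, is in capitals.
Alas2, chrX:150547167-150547466, plus strand, match starting 86 bases before the start site: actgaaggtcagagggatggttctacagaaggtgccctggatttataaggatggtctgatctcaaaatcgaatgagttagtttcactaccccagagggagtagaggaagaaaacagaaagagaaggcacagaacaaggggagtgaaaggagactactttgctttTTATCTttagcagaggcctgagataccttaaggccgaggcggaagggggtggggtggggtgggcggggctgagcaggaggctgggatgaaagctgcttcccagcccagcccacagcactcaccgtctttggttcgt
Rhd, chr4:134864286-134864585, plus strand, match 43 bases before the start site: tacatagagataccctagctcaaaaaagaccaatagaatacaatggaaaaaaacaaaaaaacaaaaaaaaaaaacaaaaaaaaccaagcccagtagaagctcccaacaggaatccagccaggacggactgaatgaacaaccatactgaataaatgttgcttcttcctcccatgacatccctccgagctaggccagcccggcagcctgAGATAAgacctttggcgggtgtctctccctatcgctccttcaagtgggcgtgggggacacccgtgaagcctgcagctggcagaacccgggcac
Hbb-bs, chr7:103827879-103828178, minus strand, match 210 bases before the start site: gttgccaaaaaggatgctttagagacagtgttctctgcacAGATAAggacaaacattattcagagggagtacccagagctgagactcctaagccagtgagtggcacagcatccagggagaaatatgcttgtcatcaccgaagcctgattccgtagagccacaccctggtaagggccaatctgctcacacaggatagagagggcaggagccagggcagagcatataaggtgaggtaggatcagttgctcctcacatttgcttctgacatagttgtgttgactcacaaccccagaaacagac

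The 12 genes of largest rise in bone, by the rule for named genes, were led by the same lineage. Ctse encodes cathepsin E, an aspartic protease, and had no count in any muscle library, against 462 to 1266 CPM in bone with a median of 961. Taking 3 counts per library as the limit that a count of 0 allows, it was at least 1211-fold higher in bone (edgeR adjusted p = 1.78e-12). Rhd, the Rhesus D antigen of red cells (chromosome 4, 134864536 to 134896172), was at least 792-fold higher. Hemgn, a nuclear protein of blood progenitors, was at least 783-fold higher. These 3 genes had no count in any muscle library and were counted in every bone library, where the lowest value was 156 CPM for Hemgn in library G.

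Trim10, a gene used in red cell maturation, was at least 567-fold higher in bone. Car1, a carbonic anhydrase of red cells, was at least 232-fold higher. Tspo2, an erythroid relative of the translocator protein, was at least 221-fold higher, and Cldn13, a claudin of erythroid cells, at least 189.9-fold. Car2, another red cell carbonic anhydrase, had 1 count in muscle in all, which gives a ratio of 19577 with a 95% counting interval of 3513 to 773344. E2f2, a transcription factor of the cell cycle, had 3 muscle counts and a ratio of 4514 (95% interval 1544 to 21895). Such intervals and bounds cover counting error only, since reads without molecular identifiers are not independent molecules. Msmp, a secreted microseminoprotein, was spread widely over the bone libraries. It had 11.7 to 1751 CPM there with a median of 73.0, and was at least 633-fold higher than in muscle (adjusted p = 0.0219), or at least 298-fold without library H. Camp, the neutrophil antimicrobial peptide cathelicidin, had 0 to 2.52 CPM in muscle and 23.9 to 5283 in bone, with bone library L the highest.

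Neutrophil genes, of granule proteins and others, were also read in bone. The list of 20 held 0.0853% to 3.27% of bone counts, lowest in library I and highest in library L, and at most 0.00998% in muscle (exact permutation p = 0.002165, adjusted 0.00354). Without globin counts in the denominator, the share in library L was 9.75%. S100a8, a calcium-binding protein abundant in neutrophils, had 598 to 27666 CPM in bone with a median of 2110.3, and 0 to 33.6 in muscle with a median of 0.330. Its log2 fold change was 10.24 ± 2.30 (edgeR adjusted p = 0.0156), and the groups did not overlap. Only 3 members were tested, S100a8, its partner S100a9 and Camp, and all 3 were called (3 to 9 were when 1 library was left out, and S100a9 lost its call without muscle library D, adjusted p = 0.0537). Without a filter 19 of 20 were called higher in bone.

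Few genes of macrophages and of leukocytes in general could be tested. Of 23 matched members 4 were tested and all 4 were called higher in bone (4 to 8 when 1 library was left out). Members low in muscle pass the filter mainly through bone, so this count describes those that passed, as does that of the neutrophil list. Lyz2, a lysozyme of myeloid cells, had 0.981 to 73.9 CPM in muscle and 4.12 to 5378 in bone, where library I was as low as muscle (log2 fold change 5.78 ± 1.47, adjusted p = 0.0312, and 0.0541 to 0.0679 without muscle library A, B, D or E). Cd52, Laptm5 and Tyrobp, membrane proteins of leukocytes, had log2 fold changes of 8.15, 6.60 and 8.49 with adjusted p of 0.000178, 0.00587 and 0.00117. Ptprc, the CD45 gene that the gate selected against, was at or below 1.10 CPM in every muscle library. In bone it ranged from 0 to 73.2 CPM, with a median of 15.4, was 0 in library I and highest in library L, and was not tested. No member of the B lineage, T and NK or megakaryocyte lists was tested. The shares of these 3 lists gave exact permutation p of 0.998, 0.935 and 0.885. Without globin counts in the denominator the same test gave 0.468, 0.255 and 0.455. Counts were uneven in bone. The B lineage list had 0 in library K and 464 in library L, against at most 13 in muscle. The megakaryocyte list had 0 in library J and 1153 in library G, against at most 161 in muscle. Without a filter 2, 1 and 2 members were called higher in bone, and 1 megakaryocyte gene higher in muscle. In bulk RNA, fewer cells of a type and less RNA per cell cannot be told apart.

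**Figure D1:**
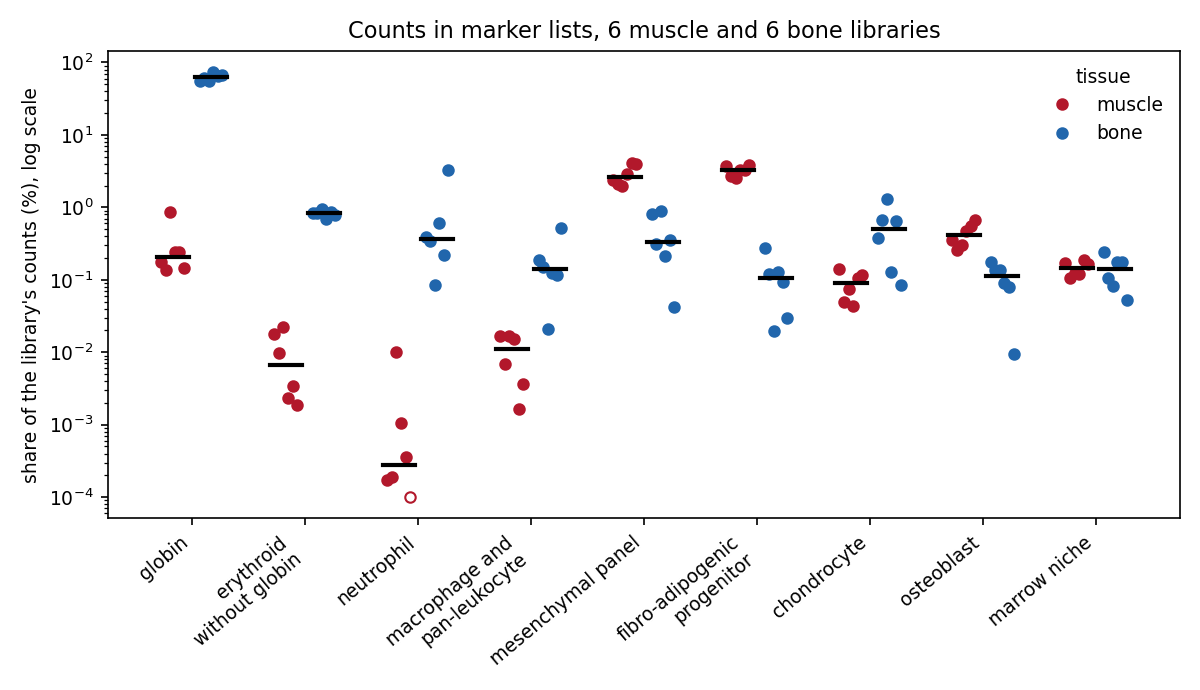
Share of each library's counts held by 9 marker lists, on a log axis in percent, with 1 point per library (red for muscle, blue for bone) and a black line at the median. The open symbol at the axis floor is a muscle library with no neutrophil count. Globin holds 56.2% to 73.9% of bone counts and under 1% of muscle counts, and the fibro-adipogenic list lies at 2.51% to 3.81% in muscle against 0.0196% to 0.273% in bone.

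With red cell genes so abundant in bone, 2 scalings were read side by side. The first is TMM over all genes. The second divides by the summed counts of 16 general mesenchymal transcripts, the mesenchymal panel (Pdgfra, collagens I, III and VI, Dcn, Lum, Sparc and others). It compares genes per unit of these transcripts. In bone library I, Sparc made up most of the panel counts. There the panel held 0.881% of counts and the interstitial collagens 0.105%. A panel without Sparc was not run. The panel held 1.96% to 4.16% of counts in muscle and 0.0420% to 0.881% in bone, lowest in library L. Without globin counts in the denominator the panel shares overlapped, at 1.98% to 4.17% in muscle and 0.125% to 2.02% in bone. They were still lower in bone, by 1.78 in mean log2 share (exact permutation p = 0.00433, adjusted 0.00818 over 17 lists). Counts and medians of a list relative to the panel leave out its panel genes. This scaling was planned for stromal lists, and its values for other lists are printed as description only. With TMM, 389 of the 5719 genes tested were higher in muscle (6.80%) and 196 in bone (3.43%). Of these, 383 and 135 had no overlap between the tissues. Relative to the panel, 198 were higher in muscle (3.46%) and 596 in bone (10.4%). The median log2 fold change over all genes moved from -0.53 with TMM to 2.05 with the panel. A list median relative to the panel is therefore read beside 2.05. A turn of its sign is not by itself a difference from all genes. All 198 genes called higher in muscle with the panel were also among the 389, and all 196 called higher in bone with TMM were among the 596. No gene was called in opposite directions. Without bone library L, the panel counts were 569 and 443 and the median over all genes was 0.74. With TMM, leaving out 1 bone library raised the number higher in muscle to between 647 (library H) and 910 (library J), while the filter then kept 6422 to 6704 genes. Of the 389 genes higher in muscle, 161 had no count in any bone library, while 12 of the 196 higher in bone had none in muscle. A gene absent from either tissue passes the filter through the other alone, so list counts below describe the members that passed.

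Pdgfra itself, the gene of the sorted receptor (chromosome 5, 75152292 to 75198215), was lower in bone. It had 168 to 339 CPM in muscle with a median of 259. In bone the range was 0 to 62.7 with a median of 3.84, and libraries H and L had no count. The groups did not overlap, and the log2 fold change was -4.12 ± 1.10 (adjusted p = 0.0128). Vcam1, a cell adhesion molecule excluded in the muscle gate alone (chromosome 3, 116109949 to 116129688), had 23.5 to 45.9 CPM in muscle and 0 to 184 in bone, with medians of 26.9 and 57.6. The bone libraries lay on both sides of the muscle libraries, and the log2 fold change of 1.29 ± 1.14 did not pass (adjusted p = 0.646). Pecam1, the CD31 gene, was at most 5.35 CPM in muscle and 1.76 in bone.

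Among the 16 panel genes, transcripts of general connective tissue, 7 were called higher in muscle with TMM, against 6.80% of all genes. The other 9 were not called, none was higher in bone, and the median log2 fold change of the panel genes was -2.51. Dcn, the collagen-binding proteoglycan decorin (chromosome 10, 97479609 to 97518143), had 4122 to 9067 CPM in muscle and 121 to 1077 in bone. Its groups were apart, with a log2 fold change of -3.40 ± 0.486 (adjusted p = 0.00108). Col1a2, a chain of type I collagen, had a log2 fold change of -3.21 ± 0.768 (adjusted p = 0.0204). Col3a1, the chain of type III collagen, had a comparable one of -3.09, but bone libraries ran from 0 in library I to 1518 CPM in library G, and it did not pass (SE 1.36, adjusted p = 0.252). Sparc, a collagen-binding matricellular protein used in bone matrix, went the other way without passing. It had 1364 to 2885 CPM in muscle and 433 to 9153 in bone, highest in library I and lowest in library L (log2 fold change 0.80 ± 0.550, adjusted p = 0.542). Twist1 and Twist2, transcription factors of limb and connective tissue mesenchyme, had no count in bone and were at least 14.8-fold and 10.8-fold higher in muscle. Globin transcripts took 56.2% to 73.9% of counts in the libraries in which these genes were low, and their part in these differences was tested only through the other scalings.

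Markers of fibro-adipogenic progenitors were higher in muscle in 7 of 22 tested members, against 6.80% of all genes, and in bone in none. The median log2 fold change was -3.42 with TMM and -1.66 relative to the panel, against -0.53 and 2.05 over all genes. Relative to the panel, 1 member was called, Osr1, against 3.46% of all genes called higher in muscle. Gsn, the actin-severing protein gelsolin and the most abundant member (chromosome 2, 35256380 to 35307892), had 9164 to 14938 CPM in muscle with a median of 13055, and 148 to 1769 in bone with a median of 735. No bone library reached the muscle range (log2 fold change -3.91 ± 0.541, adjusted p = 0.00122). Cd34, a sialomucin on progenitor cells, had 202 to 431 CPM in muscle and 0 to 38.9 in bone (log2 fold change -5.40 ± 1.27, adjusted p = 0.00720). Osr1, a transcription factor of limb connective tissue progenitors (chromosome 12, 9570116 to 9581500), had 5.28 to 58.1 CPM in muscle, no count in bone, and was at least 22.2-fold higher (adjusted p = 0.00400, and 0.00674 relative to the panel).

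Clec3b and Smoc2 are further progenitor markers that encode secreted proteins. Clec3b had 2584 to 3703 CPM in muscle and 0 to 648 in bone, and Smoc2 899.9 to 1679 against 0 to 309.8. The tissues did not overlap for either gene, yet the spread within bone left their log2 fold changes of -4.05 ± 1.47 and -4.09 ± 1.21 short of the threshold (adjusted p = 0.141 and 0.0630). Bone library I had no count of either. The list as a whole held 2.51% to 3.81% of muscle counts and 0.0196% to 0.273% of bone counts (exact permutation p = 0.002165, adjusted 0.00354).

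**Figure D2:**
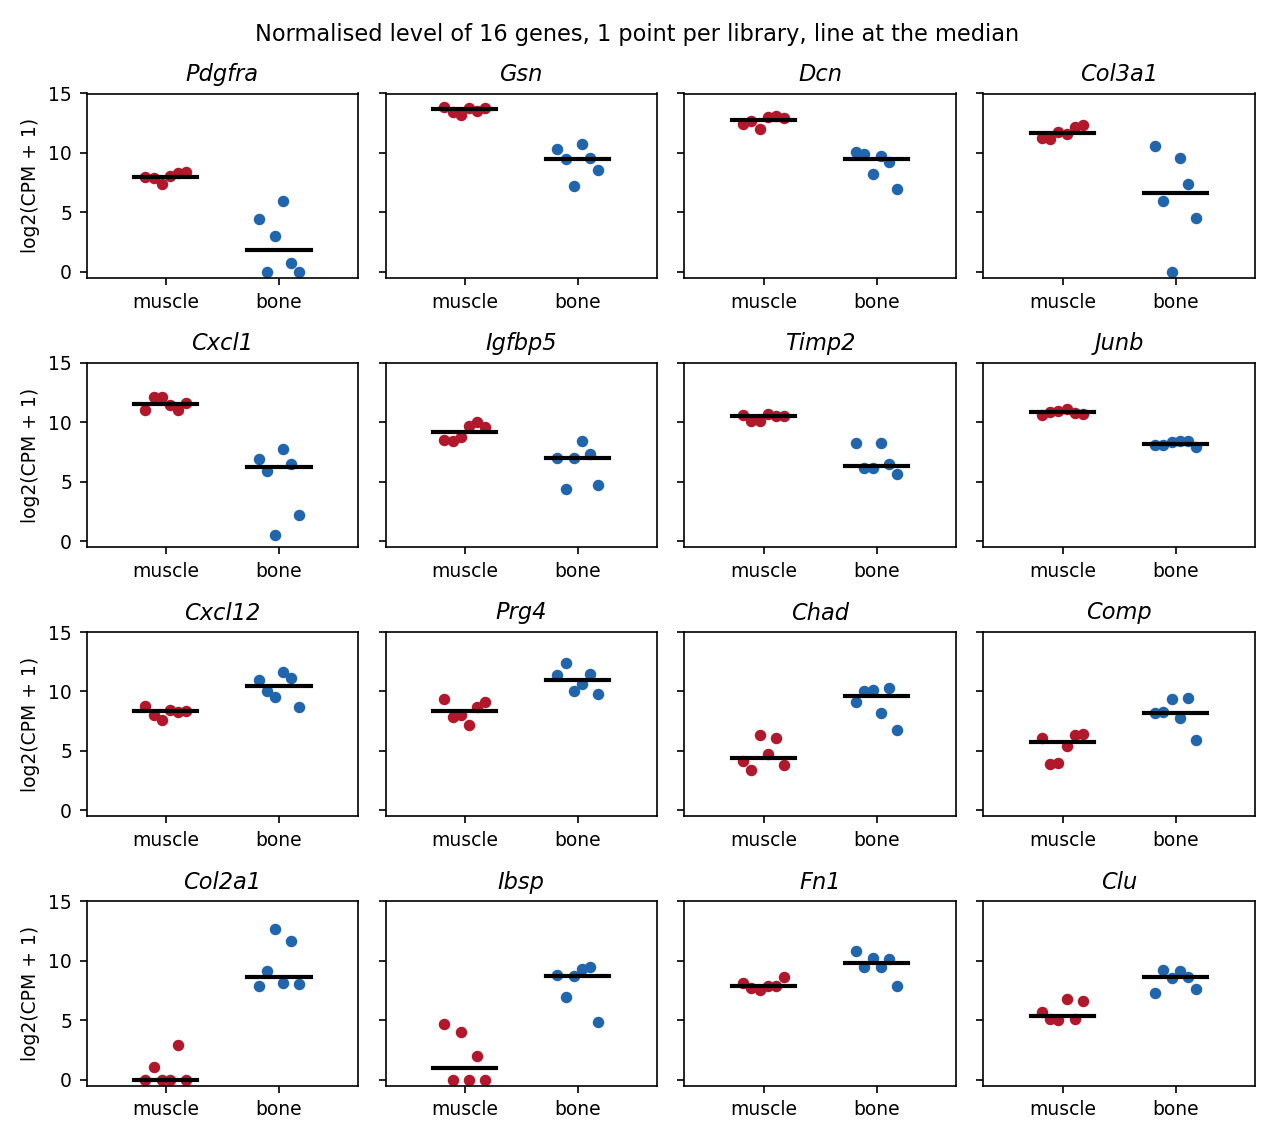
Level of 16 genes in every library, as log2(CPM + 1) on a common axis, with 1 point per library (red for muscle, blue for bone) and a line at the median. Gsn lies between 9164 and 14938 CPM in all muscle libraries and at or below 1769 CPM in bone, while the bone libraries spread widely for Pdgfra, Col3a1 and Cxcl1.

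The 12 genes of largest rise in muscle were mostly matrix proteins and membrane proteins. Ifi205, an interferon-inducible nuclear protein (chromosome 1, 174011998 to 174031810), had 178 to 656 CPM in muscle with a median of 288, no count in bone, and was at least 204-fold higher (adjusted p = 4.72e-08). Eln, elastin (chromosome 5, 134702593 to 134747323), had 222 to 352 CPM and was at least 169-fold higher (adjusted p = 1.36e-07). Fndc1, a secreted protein with fibronectin type III domains, was at least 162-fold higher, and Fbln2, the elastic fibre protein fibulin 2, at least 102-fold. All 4 stayed called relative to the panel, with adjusted p of 0.000512, 0.00114, 0.00149 and 0.00388.

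Abca8a, a lipid transporter, had the highest level of these 12, 427 to 748 CPM. It had 2 counts in bone, both in library L, and a ratio of 3586 (95% counting interval 992 to 29611). Its neighbour Abca8b on chromosome 11 was at least 60.9-fold higher. The others had no count in bone. They were Steap4, a metalloreductase (at least 58.3-fold), Penk, the opioid precursor proenkephalin (56.8-fold), Deptor, an inhibitor of mTOR (55.7-fold), Spock2, the proteoglycan testican 2 (53.8-fold), Map1b, a microtubule-associated protein (53.4-fold), and Dpep1, a membrane dipeptidase (52.2-fold).

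Matrix genes were described in 6 lists, which differed in how many members were called. Over all genes the medians were -0.53 with TMM and 2.05 relative to the panel. With TMM 6.80% of all genes were higher in muscle and 3.43% in bone, and relative to the panel 3.46% and 10.4%. Interstitial collagens had 4 of 15 tested members higher in muscle (3 to 7 when 1 library was left out) and none in bone, with a median of -1.84. Without the 5 panel genes among them the median was -1.63 and turned to 0.27 relative to the panel, with 1 call higher in muscle. Col1a1, the main chain of bone collagen, was not among them. It had 1702 to 3955 CPM in muscle and 0 to 1367 in bone, with none in library I (log2 fold change -2.16 ± 1.29, adjusted p = 0.462). Collagen-processing enzymes had 1 of 19 higher in muscle (0 to 2 when 1 library was left out), a smaller share than the 6.80% of all genes tested. Their median was -1.22, or -1.08 without the 1 panel gene, turning to 1.03 relative to the panel with no call. Small leucine-rich proteoglycans had 3 of 10 higher in muscle, with a median of -1.25. Without the 3 panel genes among them the median was -0.73 and turned to 1.22 relative to the panel, with 1 call. Among them Bgn, biglycan, had a log2 fold change of -1.37 ± 0.417 (adjusted p = 0.0326, and 0.0537 without bone library H) with overlapping groups.

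The next 2 lists are also read beside the 6.80% of all genes higher in muscle and 3.43% in bone. Matricellular and elastic fibre genes had 7 of 28 members higher in muscle (7 to 13 when 1 library was left out) and 1 in bone, 1 to 2 then (median -2.15). Without the panel gene Sparc the median was -2.26, and -0.89 relative to the panel, with 4 called higher in muscle and 1 in bone. The 1 was Fn1, fibronectin (chromosome 1, 71585520 to 71653200). It had 187 to 395 CPM in muscle with a median of 233, and 232 to 1807 in bone with a median of 910.0. Library L was the 1 bone library within the muscle range, and the log2 fold change was 1.92 ± 0.389 (adjusted p = 0.00174), or 3.68 relative to the panel (adjusted p = 0.00166). Basement membrane genes had 5 of 10 higher in muscle and none in bone (median -3.28, panel -1.65 with 2 calls). Nid1, the linker protein nidogen 1, had 181 to 495 CPM in muscle and counts in bone in libraries J and K only, at most 25.4 CPM (log2 fold change -6.09 ± 1.33, adjusted p = 0.00527). Col4a1, a chain of type IV collagen, had a log2 fold change of -3.75 ± 0.870 (adjusted p = 0.00515).

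Among matrix proteases and their inhibitors, 5 of 11 were higher in muscle, against 6.80% of all genes. None of the 11 was higher in bone (median -2.46, panel -1.23 with 1 call). Timp2, an inhibitor of metalloproteinases (chromosome 11, 118301069 to 118355740), had 1081 to 1695 CPM in muscle and 48.0 to 303 in bone. The groups were apart (log2 fold change -3.27 ± 0.430, adjusted p = 8.67e-06). Timp3 and Adamts1, an inhibitor and a protease that cleaves proteoglycans, had log2 fold changes of -1.84 and -2.38 (adjusted p = 0.00161 and 0.00743). Without bone library G, Adamts1 had an adjusted p of 0.0539. Relative to the panel none of these 3 genes passed, with adjusted p of 0.261, 0.788 and 0.651.

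**Figure D3:**
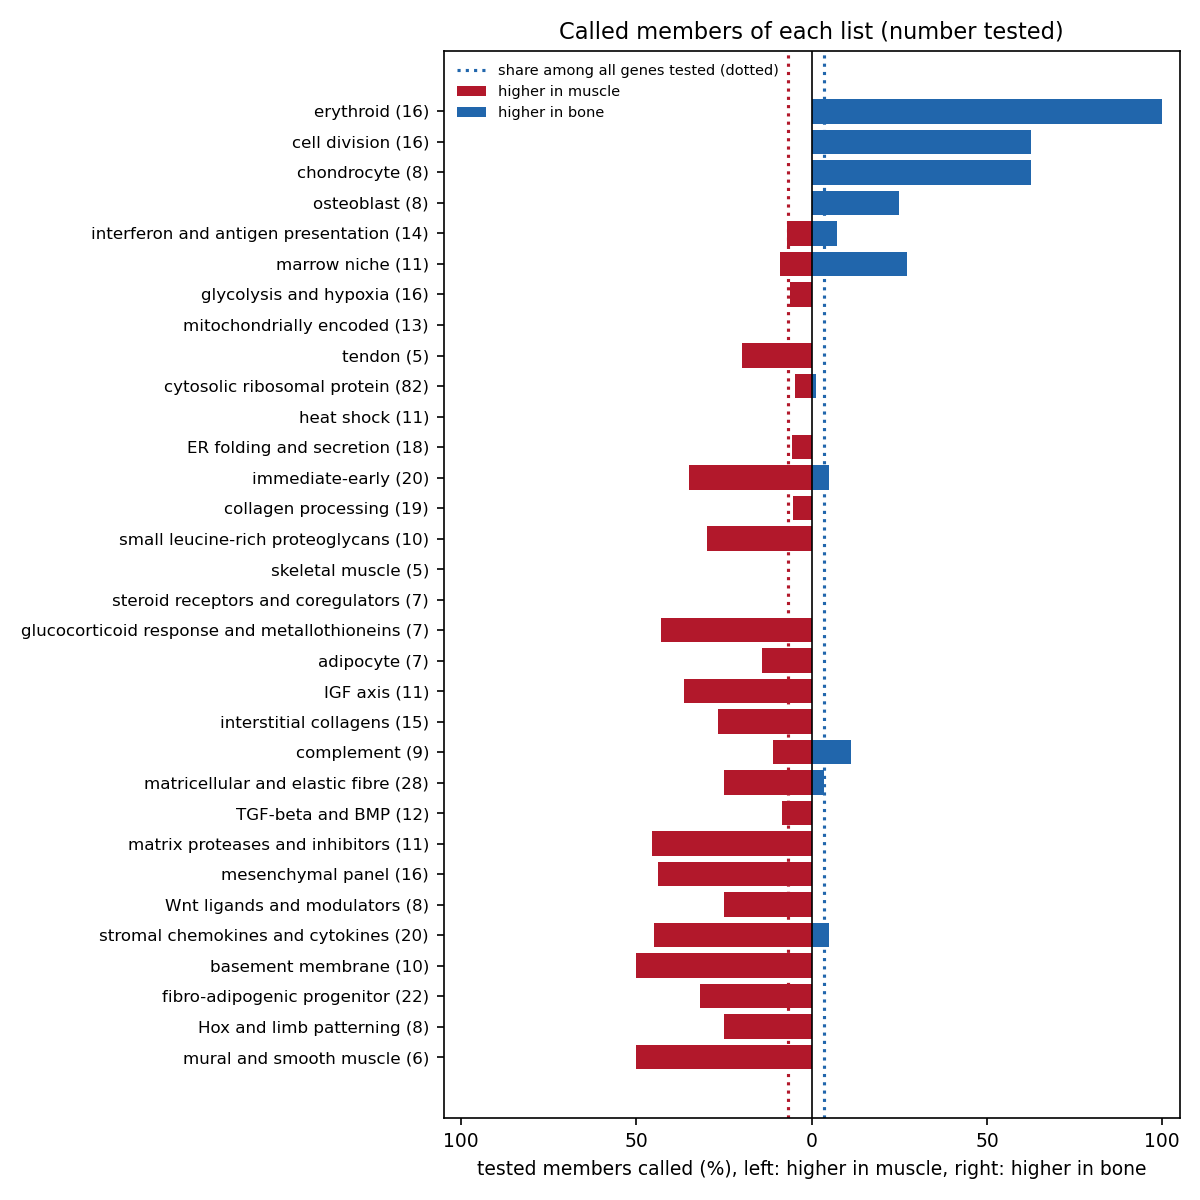
Percent of tested members of each list with at least 5 tested genes that were called higher in muscle (red, to the left) or in bone (blue, to the right), with the number tested in brackets and lists ordered by median log2 fold change. The dotted lines give the shares over all genes tested, 6.80% and 3.43%. Erythroid, cell division and chondrocyte genes lie on the bone side, and most matrix and signalling lists on the muscle side.

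The insulin-like growth factor axis comprises Igf1, its receptors and the binding proteins that hold IGF in the matrix, and the series title names IGFBP5. Of 11 tested members 4 were higher in muscle, against 6.80% of all genes, and none in bone, with a median of -1.80. Relative to the panel the median was 0.20 and none was called. Over all genes the medians were -0.53 and 2.05. Igfbp5 (chromosome 1, 72857932 to 72874884) had 350.1 to 1022 CPM in muscle with a median of 614, and 19.7 to 347 in bone with a median of 129. The highest bone library, J, lay just under the lowest muscle library. The log2 fold change was -2.21 ± 0.552 (adjusted p = 0.00759), and -0.39 relative to the panel (adjusted p = 0.789). Igf1, the ligand, had 148 to 561 CPM in muscle and 0 to 76.7 in bone (log2 fold change -4.00 ± 1.13, adjusted p = 0.0232, and 0.0766 without bone library I).

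The binding protein genes differed among themselves. Igfbp7 had a log2 fold change of -1.53 ± 0.422 (adjusted p = 0.0168) and Igfbp3 one of -5.05 ± 1.49 (adjusted p = 0.0259), with bone counts of Igfbp3 in library J alone (without it the log2 fold change was -11.91, adjusted p = 0.000155). Igfbp4 had 441 to 850.2 CPM in muscle and 0 to 632 in bone and was not called (adjusted p = 0.612). In the authors' deposited table for muscle, Igfbp5 had a knockout over control log2 fold change of 1.23 (FDR 0.0180). The authors' deposited table for bone gave 0.80 (FDR 0.764).

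Esr1, estrogen receptor alpha (chromosome 10, 4611593 to 5005614), had 0.314 to 38.8 CPM in muscle with a median of 20.4. In bone it had 235 CPM in library G, 41.0 in library K and 0 elsewhere, so the bone libraries lay both above and below muscle. The log2 fold change of 1.15 ± 1.64 did not pass (adjusted p = 0.804) and was -1.35 without library G. None of the 7 tested steroid receptors and coregulators was called in either direction. Their median of -1.40 turned to 2.02 relative to the panel, close to the 2.05 of all genes. Knockout over control in the authors' deposited tables was 1.02 for Esr1 in muscle (p = 0.404) and -2.69 in bone (p = 0.245). Of the 389 genes higher in muscle, 2 were under FDR 0.05 in the authors' deposited table for muscle and 0 in that for bone. Of the 196 higher in bone, the authors' deposited tables had 1 in muscle and 0 in bone.

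Secreted signals of the TGF-beta and BMP family had 1 of 12 tested members higher in muscle, close to the 6.80% of all genes tested (1 to 4 when 1 library was left out). None was higher in bone (median -2.44, panel -0.58). The member higher in muscle was the ligand Tgfb2, with 54.1 to 137 CPM in muscle and at most 9.53 in bone (log2 fold change -5.81 ± 1.55, adjusted p = 0.0127, and -9.29 without bone library J, adjusted p = 0.000959). Wnt ligands and modulators had 2 of 8 higher in muscle, 2 to 6 when 1 library was left out (median -2.99, panel -1.17). Sfrp2, which binds Wnt ligands outside the cell, had a log2 fold change of -5.11 ± 1.42 (adjusted p = 0.0170). Dkk2, which binds Wnt co-receptors, had no bone count and was at least 29.5-fold higher in muscle. Wif1, another Wnt-binding inhibitor, had 0 to 22.2 CPM in muscle and 14.7 to 421 in bone. Its log2 fold change of 4.09 ± 1.36 passed relative to the panel (adjusted p = 0.0136) and not with TMM (adjusted p = 0.0545).

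Stromal chemokines and cytokines had 9 of 20 tested members higher in muscle and 1 in bone (median -3.07), and 4 and 1 were relative to the panel (median -1.13). Over all genes the shares were 6.80% and 3.43% with TMM and 3.46% and 10.4% relative to the panel. Cxcl1, a chemokine that attracts neutrophils (chromosome 5, 90891241 to 90893115), had 2060.2 to 4548 CPM in muscle with a median of 2943. Bone libraries had 0.412 to 219.9, lowest in libraries I and L, and the log2 fold change was -5.28 ± 1.17 (adjusted p = 0.0144, and 0.00599 relative to the panel). Has1, a hyaluronan synthase, and Tnfaip6, a hyaluronan-binding protein, were higher in muscle by log2 fold changes of -3.07 ± 0.668 and -2.95 ± 0.753 (adjusted p = 0.00321 and 0.00918). Without bone library G, Tnfaip6 had an adjusted p of 0.0562.

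The member higher in bone was Cxcl12, the marrow chemokine (chromosome 6, 117168535 to 117181367). It had 196 to 441 CPM in muscle with a median of 319, and 421 to 3205 in bone with a median of 1521. Bone library L was the 1 that lay within the muscle range. The log2 fold change was 2.36 ± 0.384 (adjusted p = 0.000163), or 4.23 relative to the panel (adjusted p = 0.000203). Complement genes had 1 of 9 higher in each tissue, in muscle 1 to 2 when 1 library was left out. Of all genes tested, 6.80% were higher in muscle and 3.43% in bone. The list median of -2.04 turned to 0.29 with the panel, against 2.05 over all genes. C2, a protease of the classical pathway, had no bone count and was at least 31.0-fold higher in muscle. Clu, the secreted chaperone clusterin, had 32.1 to 111 CPM in muscle and 159.6 to 595 in bone, with no overlap (log2 fold change 2.68 ± 0.567, adjusted p = 0.00259).

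Of the skeletal lineages, most tested cartilage genes and a minority of tested osteoblast genes were called higher in bone. Of 8 tested chondrocyte genes, 5 were called higher in bone (4 to 9 when 1 library was left out) and none in muscle, with a median log2 fold change of 3.86 (panel 5.41). The share over all genes called higher in bone was 3.43%. Members low in muscle pass the filter mainly through bone, so the count of 5 describes those that passed. Prg4, the joint lubricant lubricin (chromosome 1, 150449412 to 150466165), had 146 to 656 CPM in muscle with a median of 335, and 863 to 5446 in bone with a median of 2130.3. All bone libraries were above all muscle libraries (log2 fold change 2.67 ± 0.460, adjusted p = 0.00107). Chad, the cartilage matrix protein chondroadherin (chromosome 11, 94565047 to 94569127), had 9.40 to 78.6 CPM in muscle and 106 to 1241 in bone, again with no overlap (log2 fold change 4.36 ± 0.637, adjusted p = 3.62e-05).

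Col2a1, the chain of type II collagen of cartilage (chromosome 15, 97975602 to 98004695), had 229 to 6519 CPM in bone with a median of 421 and at most 6.67 in muscle, so the groups were apart. It was highest in library I, followed by library K (log2 fold change 10.41 ± 2.01, adjusted p = 0.00670). Comp, a cartilage oligomeric matrix protein, and Hapln1, a link protein of aggrecan, had log2 fold changes of 2.88 ± 0.656 and 5.84 ± 1.84 (adjusted p = 0.00457 and 0.0407), with overlap between tissues. Hapln1 had muscle counts in library F alone, a log2 fold change of 11.38 without it, and an adjusted p of 0.143 without bone library I and 0.0565 to 0.0846 without muscle library A to E or bone library K. Sox9, the transcription factor of the lineage, had 22.8 to 79.6 CPM in muscle and 28.1 to 318 in bone and did not pass (log2 fold change 1.73 ± 0.817, adjusted p = 0.246). Without a filter 15 of 21 members were called higher in bone, among them Acan, Col9a1, Col9a2, Col9a3, Col10a1, Matn3, Snorc and Sox6, named as all those the filter had removed and chosen after their values were seen. The list held 0.0857% of counts in library L and 1.31% in library I, against 0.0431% to 0.141% in muscle (exact permutation p = 0.0173, adjusted 0.0223). Without globin counts in the denominator the groups did not overlap, at 0.255% to 3.00% in bone and 0.0432% to 0.141% in muscle (p = 0.002165 by the same exact test).

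Osteoblast genes were fewer. Of 8 tested, 2 were called higher in bone, against 3.43% of all genes, and none in muscle (median 1.50, panel 3.12). Ibsp, bone sialoprotein (chromosome 5, 104299171 to 104311469), had 0 to 24.0 CPM in muscle and 27.5 to 728 in bone with a median of 427. The lowest bone library, L, lay just above the highest muscle library (log2 fold change 5.81 ± 1.60, adjusted p = 0.0359, and 0.0605, 0.0970 and 0.0532 without muscle library C, muscle library E or bone library G). Spp1, osteopontin (chromosome 5, 104435118 to 104441050), had 0 to 4.17 CPM in muscle and 2.71 to 233 in bone, lowest in library G (log2 fold change 6.79 ± 1.56, adjusted p = 0.00505). Without a filter 6 of 24 members were called higher in bone, with Alpl, Bglap, Bglap2 and Col11a2 added (named after their values were seen), and reads of the osteocalcin genes Bglap and Bglap2 can be split between these copies. The summed share of the list did not follow these calls. It was 0.261% to 0.668% in muscle and 0.00936% to 0.179% in bone (exact permutation p = 0.002165, adjusted 0.00354), and it includes Col1a1. Without globin counts in the denominator the groups overlapped, at 0.261% to 0.669% in muscle (median 0.412%) and 0.0279% to 0.408% in bone (median 0.328%), and the difference did not pass (exact permutation p = 0.0996, adjusted 0.130 over 17 lists). Runx2, the factor that specifies osteoblasts, had counts in bone libraries J and K and in muscle library E, and was not tested.

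The core motif bound by Runx factors, TGTGGT, searched on both strands, was present in 5 of 24 RefSeq windows of 16 osteoblast members (20.8%), against 5506 of 32851 windows over all genes (16.8%). The share was therefore close to that of all windows. Of the 2 genes called, the window of Ibsp held none and 1 window of Spp1 held it. The Spp1 window is printed as the single such match in a called member, with the motif, here on the other strand, in capitals.
Spp1, chr5:104434861-104435160, plus strand, match starting 128 bases before the start site: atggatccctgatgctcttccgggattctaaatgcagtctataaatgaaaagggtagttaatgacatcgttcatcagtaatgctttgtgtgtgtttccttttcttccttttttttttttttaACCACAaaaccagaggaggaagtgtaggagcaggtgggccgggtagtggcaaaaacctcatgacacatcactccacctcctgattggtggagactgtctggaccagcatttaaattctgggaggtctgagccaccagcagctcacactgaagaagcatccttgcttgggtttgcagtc

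Genes of the marrow niche, the reticular cells that feed blood stem cells, went both ways. Of 11 tested, 3 were higher in bone and 1 in muscle, 1 to 2 when 1 library was left out (median 0.66, panel 2.17). Over all genes tested the shares were 3.43% in bone and 6.80% in muscle, and the 1 in muscle is close to the latter. The 3 higher in bone were Cxcl12, given above, Adipoq and Hp. Adipoq, the hormone adiponectin, which marrow reticular cells also make, had 0 to 7.84 CPM in muscle and 0 to 563 in bone, where library I had none (log2 fold change 7.01 ± 1.86, adjusted p = 0.0144, and 11.75 without muscle library B, the 1 with counts). Hp, the haemoglobin-binding protein haptoglobin, had 4.65 to 479 CPM in bone, highest in library L, and at most 0.879 in muscle (log2 fold change 9.63 ± 1.61, adjusted p = 0.000225). Hp is also made by neutrophils, whose genes were highest in the same library, and their part in its level was not tested. Angpt1, a ligand of the TIE2 receptor, had no bone count and was at least 17.2-fold higher in muscle. Ebf1, a transcription factor of reticular cells, had 197 to 277 CPM in muscle and 0 to 138 in bone and did not pass (adjusted p = 0.169). The share of the list was 0.107% to 0.188% in muscle and 0.0519% to 0.242% in bone (exact permutation p = 0.558). Without globin counts in the denominator it was 0.107% to 0.188% in muscle (median 0.146%) and 0.155% to 0.677% in bone (median 0.390%), higher in bone with overlapping groups (exact permutation p = 0.0130, adjusted 0.0221).

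The tendon, adipocyte and limb patterning lists had few tested members. In them, 1 or 2 calls do not set a list apart from the 6.80% of all genes higher in muscle. Tendon genes had 1 of 5 tested members higher in muscle (1 to 3 when 1 library was left out), the matrix protein Thbs4 (log2 fold change -2.39 ± 0.562, adjusted p = 0.00562), and a median of 0.06 that was 2.20 relative to the panel. Cilp, a cartilage and tendon matrix protein, had 339 to 685 CPM in muscle and 303 to 1479 in bone and passed relative to the panel alone (adjusted p = 0.202 with TMM and 0.00752 with the panel). Adipocyte genes had 1 of 7 higher in muscle (0 to 2 when 1 library was left out). Their median of -1.56 turned to 1.31 relative to the panel, against 2.05 over all genes. The 1 was Apod, the lipid carrier apolipoprotein D, at 1037 to 1626 CPM in muscle and 0 to 121 in bone (log2 fold change -5.69 ± 1.53, adjusted p = 0.0402). Bone libraries I and L had no Apod count. Its adjusted p was 0.0507 to 0.0637 without any 1 muscle library or without bone library H, J or K. Of 41 Hox and limb patterning genes 8 were tested, and 2 were higher in muscle, 2 to 6 when 1 library was left out, and none in bone (median -4.01, panel -0.79). These were Meox1 and Meox2, homeobox factors of somite-derived mesenchyme, both with no bone count and at least 26.1-fold and 38.0-fold higher, and 17.3-fold for Meox1 without muscle library B.

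**Figure D4:**
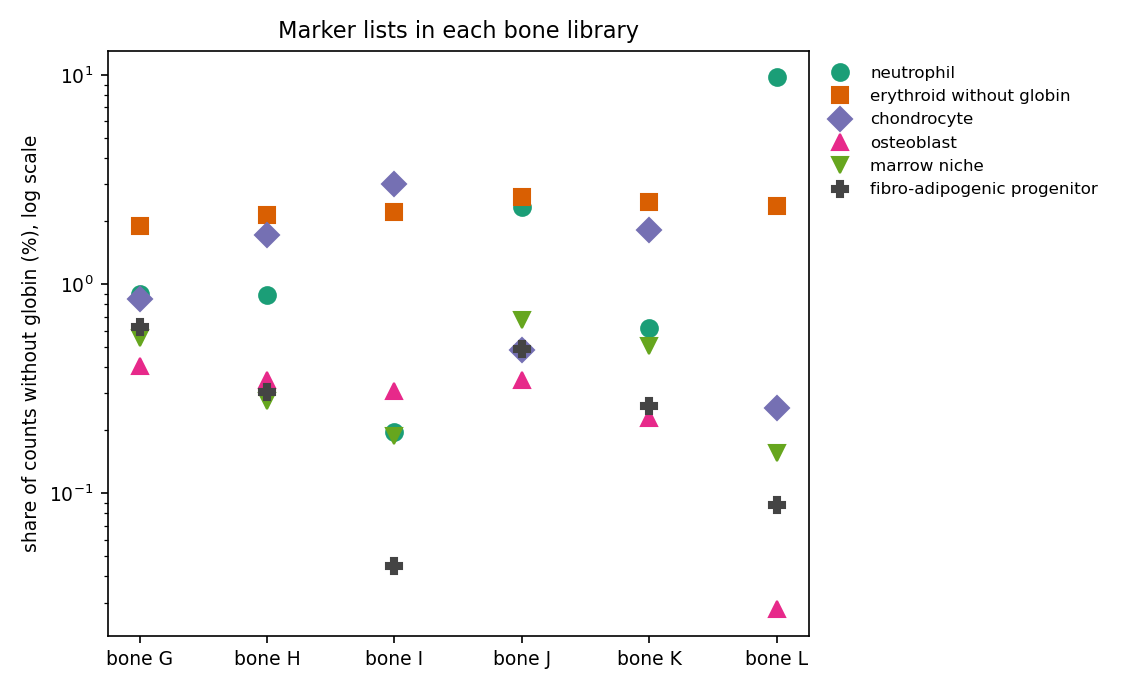
Share of counts without globin held by 6 marker lists in each bone library G to L, on a log axis in percent. Neutrophil genes reach 9.75% in library L, chondrocyte genes 3.00% in library I, and the erythroid genes without globin differ little between the 6 libraries.

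Marker genes of other cell types in muscle were also read. Of 6 tested mural and smooth muscle genes, 3 were higher in muscle (3 to 6 when 1 library was left out) and none in bone (median -4.83, or -3.89 with genes absent from bone at their bound). The share over all genes higher in muscle was 6.80%. Acta2, smooth muscle actin, had 8.10 to 643 CPM in muscle and counts in bone in library L alone (log2 fold change -8.05 ± 1.40, adjusted p = 0.000341, and 4.13e-05 without library L). Myl9, a myosin light chain, had a log2 fold change of -7.36 ± 1.55 (adjusted p = 0.00246, and 0.000222 without bone library G, the 1 with counts), and Myh11, smooth muscle myosin, had no bone count and was at least 44.6-fold higher. The list held 0.0281% to 0.196% of muscle counts and 0.000110% to 0.00575% of bone counts.

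Of 4 tested Schwann cell genes, 1 was higher in muscle and none in bone. With so few tested, 1 call does not set the list apart from the 6.80% of all genes. Endothelial genes held 0.00792% to 0.0194% of muscle counts and 0% to 0.000752% of bone counts, and skeletal muscle genes 0.00657% to 0.0947% and 3.76e-05% to 0.00844%, with library C the highest in muscle for both. Without globin counts in the denominator, the endothelial shares stayed apart and the skeletal muscle shares overlapped (0.00658% to 0.0955% and 8.59e-05% to 0.0218%). None of the tested members of these 2 lists (1 and 5) was called, and up to 2 and 3 members were when 1 library was left out. The Schwann list had 1 to 3 then. No called osteoclast gene was found among 4 tested (0 to 1 when 1 library was left out), and their median of 0.16 turned to -0.72 with globin genes left out. The part that these cell types have in the muscle levels above was not tested.

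Of 16 tested cell division genes, 10 were called higher in bone, against 3.43% of all genes, and none in muscle, with a median of 5.23. All 16 of those tested were called higher in bone relative to the panel (median 7.97), against 10.4% of all genes (median 2.05). Only these 16 of 26 members passed the filter, and members low in muscle pass it mainly through bone. The counts therefore describe the members that passed. Without a filter 17 of 26 were called higher in bone with TMM. Mki67, the proliferation antigen Ki-67 (chromosome 7, 135689784 to 135716361), had 262 to 606 CPM in bone with a median of 453 and at most 1.76 in muscle (log2 fold change 10.02 ± 1.02, adjusted p = 9.92e-08). Ube2c, a ubiquitin-conjugating enzyme of mitosis, Rrm2, a subunit of ribonucleotide reductase, and Hmgb2, a chromatin protein of dividing cells, had log2 fold changes of 6.89, 5.95 and 4.18 (adjusted p = 0.0117, 0.00175 and 0.000130). These genes are expressed in dividing red cell precursors as well as in dividing stroma. They rose in the same 6 libraries as the erythroid genes, whose part in the rise was not tested.

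Immediate-early genes, which are switched on within minutes of stimulation or of tissue dissociation, had 7 of 20 tested members higher in muscle and 1 in bone, with a median of -1.21. With the panel none was higher in muscle and 2 were in bone, and the median turned to 0.62, against 2.05 over all genes. The shares of all genes higher in muscle and in bone were 6.80% and 3.43% with TMM, and 3.46% and 10.4% with the panel. Junb, a subunit of the AP-1 transcription factor (chromosome 8, 84974484 to 84978718), had 1556 to 2174 CPM in muscle and 240.0 to 351 in bone. Both groups were tight and far apart (log2 fold change -2.61 ± 0.252, adjusted p = 3.64e-08). Relative to the panel its log2 fold change was -0.24 (adjusted p = 0.837). Egr1, another early transcription factor, had a log2 fold change of -1.90 ± 0.320 (adjusted p = 0.000231). Fos and Fosb, further AP-1 subunits, did not pass, with log2 fold changes of -0.28 ± 0.426 and -0.26 ± 0.315 (adjusted p = 0.819 and 0.755). The 1 higher in bone was Btg2, an antiproliferative gene, with a log2 fold change of 1.38 ± 0.432 (adjusted p = 0.0386) and overlap between tissues. Its adjusted p was 0.0707 to 0.161 without any 1 muscle library or without bone library H, I or K.

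Genes that respond to glucocorticoids and metals had 3 of 7 higher in muscle, against 6.80% of all genes, and none in bone (median -1.54). With the panel none was called, and the median was 0.49 against 2.05 over all genes. Mt2, a metal-binding metallothionein, had 11565 to 28436 CPM in muscle and 518 to 5652 in bone, without overlap (log2 fold change -2.47 ± 0.562, adjusted p = 0.0169). Mt1 and the transcription factor Klf9 had log2 fold changes of -2.77 ± 0.711 and -3.25 ± 0.662 (adjusted p = 0.0319 and 0.00287), and Mt1 had an adjusted p of 0.0526 without bone library I. None of the 11 tested heat shock genes was called (0 to 2 when 1 library was left out). Of 16 glycolysis and hypoxia genes, 1 was called, close to the 6.80% of all genes called higher in muscle. It was Hk2, a hexokinase, higher in muscle (log2 fold change -2.27 ± 0.515, adjusted p = 0.00450). Relative to the panel 4 were higher in bone and none in muscle, against 10.4% and 3.46% of all genes.

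Of 14 interferon and antigen presentation genes, 1 was higher in each tissue (1 to 4 in muscle and 1 to 2 in bone when 1 library was left out). The shares over all genes tested were 6.80% in muscle and 3.43% in bone. With the panel 1 was higher in muscle and 6 in bone, against 3.46% and 10.4% of all genes. Rsad2, the antiviral protein viperin, had 880.1 to 1856 CPM in bone and 0 to 20.1 in muscle (log2 fold change 8.12 ± 1.21, adjusted p = 0.00168). Gbp2, a guanylate-binding protein, had no bone count and was at least 29.7-fold higher in muscle. The chaperone Hspa5 was the 1 of 18 genes of protein folding in the endoplasmic reticulum that was called, higher in muscle (log2 fold change -1.09 ± 0.289, adjusted p = 0.0117). That count is close to the 6.80% of all genes. The median of that list, -0.82, turned to 1.85 with the panel, near the 2.05 of all genes. Cytosolic ribosomal protein genes had 4 of 82 higher in muscle (4 to 15 when 1 library was left out), a smaller share than the 6.80% of all genes. In bone 1 was higher (0 to 3 then), Rpl41 (log2 fold change 0.61 ± 0.186, adjusted p = 0.0326, and 0.0561 to 0.195 without any 1 muscle library or without bone library H, J or K). The list median of -0.31 turned to 2.27 relative to the panel, near the 2.05 of all genes. There 1 was higher in muscle and 47 in bone, against 3.46% and 10.4% of all genes. None of the 13 mitochondrially encoded genes was called, and 0 to 2 were when 1 library was left out (median 0.12). Of the 13, 9 were higher in bone relative to the panel (median 2.21), against 10.4% of all genes (median 2.05).

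**Figure D5:**
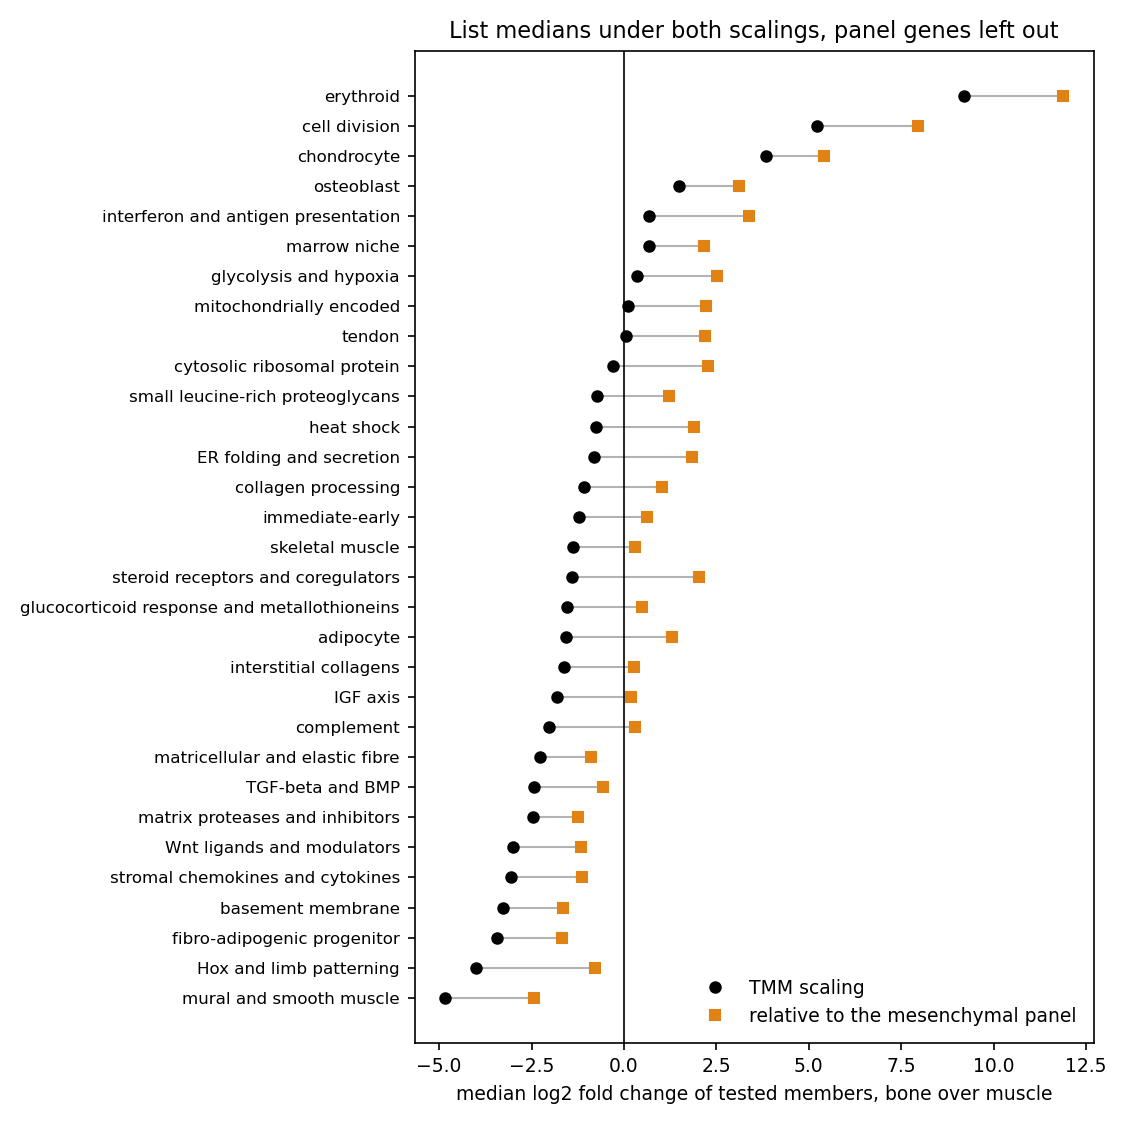
Median log2 fold change, bone over muscle, of the tested members of each list with at least 5 tested genes, panel genes left out, with TMM (black circles) and relative to the mesenchymal panel (orange squares). Erythroid, cell division and chondrocyte lists lie above 0 with both, basement membrane (-3.28 and -1.65) and fibro-adipogenic progenitor lists (-3.42 and -1.66) lie below 0 with both, and lists such as the IGF axis (-1.80 and 0.20) change sign. The medians over all genes tested, -0.53 and 2.05, change sign too.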

How the data were processed

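The 12 libraries, 6 per tissue, were read with a 3' mRNA kit, per the labels' protocols. The submitters' processing notes name GRCm38 and mm10. For the aligner and the counting tool, names were not given in the sources used here. Values used are the authors' deposited raw counts for 25655 genes per table. Log2 fold changes and p-values of knockout against control were taken as deposited by the authors. A further 36 per-library columns of other units were not used. Coordinates in the tables matched the GENCODE M21 annotation of GRCm38 for 564 of 25600 genes, so positions were taken from that annotation by gene identifier.

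Counts were fitted with edgeR 4.0.16 (R 4.3.3, robust quasi-likelihood test, tissue as the single term) after TMM scaling and the filterByExpr filter, with Benjamini-Hochberg adjustment over the genes tested. A second fit used the summed counts of 16 mesenchymal genes as library size. No single panel gene is read from it, and list values relative to it leave those genes out. Shares were compared with exact permutation tests. Alternatives were DESeq2 1.42.0, its size factors in edgeR, limma-voom (limma 3.58.1), globin or blood cell genes left out, other filters, and each library left out. Shares without globin counts, list values without panel genes and bounds without 1 library were added after seeing the data. The scripts were tested on simulated data. Named genes were Pdgfra, Vcam1, Ptprc, Pecam1, Esr1 and Igfbp5, in each direction the 12 of largest fold change among called genes without overlap and with a mean of at least 50 CPM in the higher tissue, leaving out predicted genes, mitochondrial transcripts, ribosomal protein genes, immunoglobulin segments and pseudogenes, and up to 4 tested members of highest mean level per list. Called members beyond these were named after their values were seen. The tissues compared and the 43 lists (817 of 823 entries matched) were chosen with earlier results of these data known. Results on 2 named genes are not reported here.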

Additional observations from a re-analysis of the deposited data

Results flagged for a closer look

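In each group of 6 libraries, the gap between an extreme library and its nearest neighbour was divided by the range of the group. Of 306 groups tested, 46 had a value above Dixon's 95% critical value. That critical value holds for independent, normally distributed values. Groups here include skewed shares, overlapping lists and genes at 0 in most libraries, so the 46 cannot be set against a number given by chance. A value of 1 means that the other 5 libraries were equal, here all at 0.

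Among list shares in bone, library G stood highest for interstitial collagens (0.791), small leucine-rich proteoglycans (0.658), matrix proteases and inhibitors (0.664), steroid receptors and coregulators (0.681), TGF-beta and BMP genes (0.627) and endothelial genes (0.755). Library L stood highest for neutrophil (0.836), macrophage and pan-leukocyte (0.66) and B lineage genes (0.725). In muscle, library C stood highest for globin (0.849), erythroid (0.86), neutrophil (0.896), endothelial (0.628) and skeletal muscle genes (0.773), and library A for T and NK genes (0.925).

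Among single genes in muscle, library D stood highest for Car2 (1), E2f2 (1), Hp (1), Spp1 (0.757), Laptm5 (0.774) and Tyrobp (0.788). Library C stood highest for Camp (1), S100a8 (0.836) and S100a9 (0.683), and lowest for Smoc2 (0.692) and Gbp2 (0.659). Adipoq stood highest in library B (1), Col2a1 in library E (0.649) and Hapln1 in library F (1).

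Among single genes in bone, library L stood highest for Pecam1 (1), Abca8a (1) and Acta2 (1), and lowest for Egr1 (0.672) and Fos (0.78). Library G stood highest for Myl9 (1) and lowest for Hemgn (0.797), Cldn13 (0.768), Laptm5 (0.762), Klf9 (0.713) and Hspa5 (0.681). Library J stood highest for Igfbp3 (1) and Tgfb2 (0.804). Library I stood lowest for Vcam1 (0.629), Igfbp4 (0.675) and Lyz2 (0.719), and library H for Tnfaip6 (0.64).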

How the results depend on the processing

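Against 389 genes higher in muscle, DESeq2 called 1416, limma-voom 1869 and the fit with no filter 1148. Leaving out 1 library gave 387 to 910, and each bone library left out raised the count. Against 196 genes higher in bone, DESeq2 called 620 and the fit with no filter 663, while leaving out 1 library gave 187 to 266. Relative to the mesenchymal panel, leaving out 1 library gave 205 to 621 higher in muscle and 414 to 1023 higher in bone. The cause of these moves was not tested. DESeq2, no filter and fewer libraries also bring in more genes (12076, 14078 and 6019 to 6704 tested). Without 1 muscle library, 6019 to 6288 genes were tested and 387 to 469 were higher in muscle. With globin genes left out, the counts were 319 and 197. With blood cell genes left out, they were 318 and 188. The globin share kept its direction and call under all alternatives run, with a log2 difference of 7.90 to 8.43 and a linear difference of 62.9 percentage points.

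Of 94 named genes that were called, none reversed under any alternative. DESeq2 lost 5 calls, limma-voom 14, globin genes left out with library totals 4 of 87, blood cell genes left out 1 of 77, no filter 2 and leaving out 1 library 12. The limma-voom losses were Col1a2, Cxcl1, Dcn, Gsn, Hba-a1, Hba-a2, Hbb-bs, Hbb-bt, Lyz2, Mt1, Mt2, Rpl41, S100a8 and S100a9. Of uncalled genes, the log2 fold change of Vcam1 turned to -0.25 with limma-voom. The log2 fold change of Esr1 turned to -2.43 with limma-voom and ran from -1.35 to 1.40 when 1 library was left out. With limma-voom the list medians of the osteoblast, osteoclast, marrow niche, interferon, and glycolysis and hypoxia lists were below 0. The limma-voom median over all genes tested was -2.33, against -0.53 in the main fit. The turns of sign of these lists, Vcam1 and Esr1 are read beside that shift. With globin counts left out of the denominator, an alternative added after seeing the data, the log2 share of counts in the marrow niche list turned from -0.21 to 1.24 and the log2 share of counts in the tendon list from -1.26 to 0.20, while the osteoblast, osteoclast and skeletal muscle shares no longer passed. No paired analysis was possible because the count columns carry no replicate numbers. Depth was alike in both tissues, but globin took most bone counts, so a gene at 0 there is known only as at or under the limit of 3 counts per library.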
